A study of Mus musculus with 14 samples.

Results

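Hepatocytes make bile acids from cholesterol, couple them to amino acids, secrete them into bile and take them up again from portal blood. The expression of 10 genes of this cycle was compared between livers of high-fat-fed mice given mesenchymal stem cells (MSCs) and livers of high-fat-fed controls. The genes were Cyp7a1, Cyp8b1, Cyp27a1 and Cyp7b1 for synthesis, Slc27a5 for conjugation, Slc10a1, Slco1a1 and Slco1b2 for uptake, Abcb11 for export and Nr0b2 as a regulator. They were chosen by name, and each was represented by the probe set annotated to that gene alone with the highest mean over the 14 arrays. Each of the 10 genes had 1 such probe set, out of 23410 probe sets with a gene symbol and 19938 genes with a probe set of their own.

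All mice were C57BL/6 males of 24 weeks of age that had eaten a high-fat diet for 20 weeks. HFM mice (n = 7) received MSCs by tail vein and HFS mice (n = 7) received saline, which part of the methods calls PBS, and liver was collected 24 h after the injection. The cells were GFP-labelled MSCs grown from human bone marrow of a single donor, so the HFM group shows the response of a mouse liver to human cells from that donor. RNA was taken from frozen whole liver and hybridised to Affymetrix mouse gene arrays, 1 mouse per array. No group on a normal diet was among these arrays, so every value below describes a liver after prolonged fat feeding.

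In the classic pathway CYP7A1 carries out the rate-limiting 7-alpha-hydroxylation of cholesterol and CYP8B1 adds the 12-alpha-hydroxyl group that separates cholic acid from the other primary bile acids. The alternative pathway begins with CYP27A1 and continues with CYP7B1. Bile acids returning to the hepatocyte activate the nuclear receptor FXR, which induces Nr0b2 and Abcb11, and the product of Nr0b2, SHP, represses Cyp7a1 and Cyp8b1.

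The deposited values are log2 expression, on which a difference of 1 is a doubling. They ran from 1.33 to 14.06, the medians of the 14 arrays lay between 4.24 and 4.35, and pairs of arrays correlated at 0.979 to 0.995. Hepatocyte markers were strongly detected, with 9 of 10 measured, means of 8.61 to 13.47 (Alb, albumin) and 0 of 9 past an unadjusted p of 0.05 between groups. The number of arrays limits the precision of every comparison. In whole tissue, fewer cells of a type and less RNA per cell cannot be told apart.

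Slc10a1, the main sodium-dependent bile acid uptake carrier, was 1.19-fold lower in HFM livers, with little spread between mice. Cyp27a1 and Slc27a5, of bile acid synthesis and conjugation, were 1.11-fold and 1.21-fold higher, but these 2 calls depended on the processing and on single mice. With quantile normalization their unadjusted p was 0.0751 and 0.0677 with limma. They passed 0.05 in 8 and 7 of the 14 fits that left out 1 mouse, and neither did without HFS3 and HFS4 together. The other 7 genes did not pass an unadjusted p of 0.05 over all 14 mice. Of these, Cyp7a1, Cyp8b1, Cyp7b1 and Slco1a1 were among the 48 genes of 19938 that varied most between mice of 1 group. At an unadjusted p under 0.05 with limma, 3 of the 10 genes passed, 2 higher and 1 lower in HFM livers, beside 6.47% of all probe sets (3.57% higher and 2.9% lower). None of the 10 passed an unadjusted p under 0.01 with a change of at least 1.2-fold, which 0.696% of all probe sets passed (0.453% higher and 0.243% lower). These are the p and fold cut-offs of the methods without the Bonferroni correction that the methods add, which is stricter than the adjustment used here. The groups overlapped in all 10 genes, as they did in all but 0.0555% of probe sets. None passed a Benjamini-Hochberg adjusted p of 0.05, as was the case for all 23410 probe sets, where the smallest adjusted p was 0.305. The log2 differences of the 10 genes, HFM minus HFS, ran from -0.96 to 0.28 with a median of -0.07, and 2 lay above 0 and 8 below it. Over all probe sets the median difference was 0.00 and 51.4% lay above 0.

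**Figure D1:**
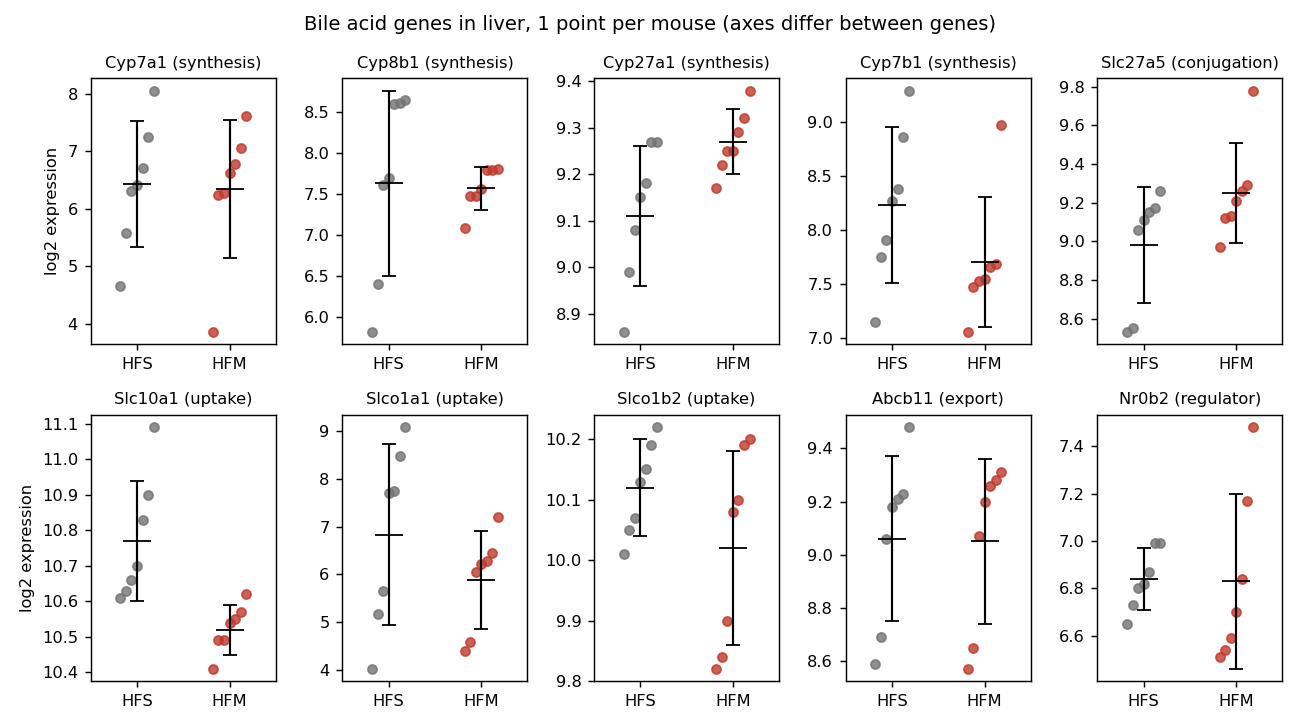
Log2 expression of the 10 bile acid genes, with 1 point per mouse (HFS grey, HFM red), a horizontal line at the group mean and bars of 1 SD (n = 7 per group). The vertical axes differ between genes. In Slc10a1, 6 of 7 HFM mice lie below all HFS mice, while Cyp8b1 in HFM mice lies within 7.09 to 7.80 against 5.82 to 8.65 in HFS mice.

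Cyp7a1 had nearly the same mean in both groups and a wide spread in each. The 7 HFM mice had 6.62, 6.78, 7.62, 7.05, 6.24, 3.85 and 6.28, in the order HFM1 to HFM7, and the 7 HFS mice had 8.06, 6.71, 5.58, 4.66, 6.42, 6.31 and 7.25. The means were 6.35 ± 1.2 (SD, n = 7) and 6.43 ± 1.1 (n = 7), and 6 of 7 HFM mice lay inside the HFS range. The exception was HFM6, below every other mouse. On the linear scale the highest mouse was 13.7 times the lowest among HFM mice, 10.5 times among HFS mice and 18.6 times over all 14. The within-group SD of Cyp7a1, 1.15, ranked 10 of 19938 genes. The log2 difference was -0.08 (standard error 0.50) with a 95% interval of -1.13 to 0.97 and an adjusted p of 0.986 with limma, and the exact two-sided permutation test gave p = 0.902. This interval includes changes from 0.457 to 1.96 times the control level, so a change of moderate size in either direction is not excluded by these mice.

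Cyp8b1 also had like means, but the groups differed in appearance. HFM mice ran from 7.09 over a median of 7.56 to 7.80, and HFS mice from 5.82 over 7.70 to 8.65. All 7 HFM mice lay inside the HFS range, which was 7.1-fold on the linear scale against 1.64-fold for the HFM mice. Among HFS mice, HFS1, HFS2 and HFS7 were high at 8.65, 8.61 and 8.60, and HFS3 and HFS4 were low at 6.40 and 5.82. The means were 7.57 ± 0.26 (n = 7) and 7.63 ± 1.13 (n = 7), with a log2 difference of -0.06 (standard error 0.36, 95% interval -0.81 to 0.70). The adjusted p was 0.986 with limma and the exact permutation p was 0.909. The difference ran from -0.36 to 0.11 when each mouse was left out in turn, and a test of the spread itself was not run. The 250 bases before the start of Cyp8b1 are shown because they hold matches for the factors that drive this gene, HNF4A (CAAAGTCCA) and LRH-1 (CAAGGNCA), whose activity SHP opposes. The sequence is RefSeq's for GRCm38.p6, chr9:121916306-121916555, minus strand, written 5′ to 3′ with the matches in capitals.
Cyp8b1: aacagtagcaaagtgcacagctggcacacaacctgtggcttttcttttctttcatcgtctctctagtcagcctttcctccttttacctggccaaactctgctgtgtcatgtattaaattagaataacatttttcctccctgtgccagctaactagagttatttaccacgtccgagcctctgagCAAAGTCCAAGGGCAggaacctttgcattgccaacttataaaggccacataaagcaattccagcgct
The HNF4A letters lie 67 to 59 bases before the start and overlap the LRH-1 letters, CAAGGGCA, at 60 to 53. On either strand, the HNF4A letters occurred in 0.384% and the LRH-1 letters in 5.53% of 32851 mouse promoters of this length. A match is a description of letters and no measure of binding. In these livers Hnf4a differed by 0.07 and Nr5a2, which encodes LRH-1, by 0.02 on the log2 scale.

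Cyp27a1, the mitochondrial sterol hydroxylase that opens the alternative pathway, was a little higher in HFM livers. Its values were 9.17 to 9.38 (median 9.25) in HFM mice and 8.86 to 9.27 (median 9.15) in HFS mice. Every HFM mouse exceeded the mean of the controls and 3 of 7 exceeded every control. The means were 9.27 ± 0.07 (n = 7) and 9.11 ± 0.15 (n = 7), a log2 difference of 0.15 (standard error 0.07, 95% interval 0.01 to 0.30) or 1.11-fold. With limma the unadjusted p was 0.037 and the adjusted p 0.77, and the exact permutation p was 0.0233. The difference passed an unadjusted p of 0.05 in 8 of the 14 fits that left out 1 mouse, and without HFS4 it was 0.11.

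Cyp7b1, the oxysterol 7-alpha-hydroxylase of the alternative pathway, had lower values in most HFM mice. The lowest HFM mouse had 7.05, the median 7.54 and the highest 8.97, against 7.14, 8.27 and 9.29 for HFS mice. HFM5 stood alone at 8.97, and 6 of 7 HFM mice lay below the HFS mean. The means were 7.70 ± 0.60 (n = 7) and 8.23 ± 0.72 (n = 7), and the log2 difference was -0.53 (standard error 0.29, 95% interval -1.14 to 0.08). This did not pass the test, with an unadjusted p of 0.0828 and an adjusted p of 0.794 with limma, and an exact permutation p of 0.158. Without HFM5 the difference was -0.74 at an unadjusted p of 0.00824 with limma, and without HFS6, the lowest HFS mouse, it was -0.71 at 0.0163. Without HFS4, the highest HFS mouse, it was -0.35 at 0.205. Within groups the spread of Cyp7b1 ranked 48 of 19938 genes.

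Slc27a5 encodes the bile acid-CoA ligase that activates bile acids for coupling to taurine and glycine. HFM mice ran from 8.97 over a median of 9.21 to 9.78 and HFS mice from 8.53 over 9.11 to 9.26, with HFM3 highest and HFS3 and HFS4 lowest. The HFS mean was exceeded by 6 of 7 HFM mice and every HFS mouse by 2. The means were 9.25 ± 0.26 (n = 7) and 8.98 ± 0.30 (n = 7), a log2 difference of 0.28 (standard error 0.13, 95% interval 0.00 to 0.55) or 1.21-fold. With limma the unadjusted p was 0.0491 and the adjusted p 0.772, and the exact permutation p was 0.114. The difference fell to 0.19 without HFM3 and to 0.20 without HFS3 or without HFS4, and it passed an unadjusted p of 0.05 in 7 of the 14 fits that left out 1 mouse. Baat, which completes the conjugation, had a log2 difference of -0.06.

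Slc10a1 encodes NTCP, the carrier that takes conjugated bile acids from sinusoidal blood together with sodium, and gave the smallest p of the 10 genes. The HFM mice had 10.54, 10.62, 10.49, 10.55, 10.49, 10.57 and 10.41, and the HFS mice had 11.09, 10.61, 10.90, 10.70, 10.63, 10.66 and 10.83. All 7 HFM mice lay below the HFS mean and 6 of 7 below every HFS mouse. The exception was HFM2, at 10.62 against 10.61 in the lowest HFS mouse, HFS2. At least 6 of 7 HFM mice lay outside the HFS range on 1 side in 0.76% of all probe sets. The means were 10.52 ± 0.07 (n = 7) and 10.77 ± 0.17 (n = 7), a log2 difference of -0.25 (standard error 0.07, 95% interval -0.41 to -0.10), or 1.19-fold lower. With limma the unadjusted p was 0.00314 and the adjusted p 0.714, and the exact permutation p was 0.00117, where the smallest that 3432 assignments allow is 0.000583. The difference stayed between -0.28 and -0.20 when each mouse was left out, with an unadjusted p under 0.05 in 14 of 14 fits. It lay just inside 1.2-fold and so missed the p and fold cut-offs, which it passed, before any correction, without HFM2, HFS2, HFS4, HFS5 or HFS6. The 250 bases before the first of 2 RefSeq starts are shown since Slc10a1 gave the clearest difference between the groups, and since they hold the letters of a STAT site (TTCNNNGAA), here TTCTCTGAA, in capitals. The region is chr12:80968706-80968955 of GRCm38.p6, minus strand, written 5′ to 3′.
Slc10a1: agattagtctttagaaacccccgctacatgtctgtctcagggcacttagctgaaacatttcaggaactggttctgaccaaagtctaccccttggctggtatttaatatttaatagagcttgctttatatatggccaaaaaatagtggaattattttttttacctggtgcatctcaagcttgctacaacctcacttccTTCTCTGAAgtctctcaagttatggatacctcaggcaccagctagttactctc
The match lies 53 to 45 bases before the start, and 7.02% of the 32851 promoters hold these letters on either strand. The promoter of the second start holds the nuclear receptor half-site AGGTCA at 87 to 82 bases before it, as do 14% of promoters.

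Slco1a1, a sodium-independent organic anion carrier, had the largest log2 difference of the 10 genes and the largest spread. HFM mice ran from 4.39 over a median of 6.21 to 7.20 and HFS mice from 4.02 over 7.71 to 9.08, with all 7 HFM mice inside the HFS range. HFS3 and HFS4 were highest at 8.48 and 9.08 and HFS6 lowest at 4.02, a 33.4-fold range among controls on the linear scale. Its within-group SD of 1.52 ranked 1 of 19938 genes. The means were 5.88 ± 1.02 (n = 7) and 6.83 ± 1.89 (n = 7), and the log2 difference of -0.96 (standard error 0.66, 95% interval -2.34 to 0.43) did not pass the test, with an adjusted p of 0.826 with limma and an exact permutation p of 0.258. Without HFS6 it was -1.43 at an unadjusted p of 0.0247 with limma, and without HFS4 it was -0.58 at 0.365. The 250 bases before the start are shown as those of the most variable gene, with both matches to the half-site AGGTCA, or TGACCT on the other strand, in capitals (GRCm38.p6, chr6:141946963-141947212, minus strand, 5′ to 3′).
Slco1a1: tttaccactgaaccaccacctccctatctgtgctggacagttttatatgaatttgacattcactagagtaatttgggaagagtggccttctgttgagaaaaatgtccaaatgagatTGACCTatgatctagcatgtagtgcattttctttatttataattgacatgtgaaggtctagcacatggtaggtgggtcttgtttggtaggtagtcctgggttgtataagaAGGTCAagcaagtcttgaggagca
The matches lie 134 to 129 and 24 to 19 bases before the start, and the STAT, HNF4A and LRH-1 letters are not in this window.

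Slco1b2, the hepatocyte carrier of unconjugated bile acids and many drugs, varied little. HFM mice ran from 9.82 over a median of 10.08 to 10.20 and HFS mice from 10.01 over 10.13 to 10.22, and 3 of 7 HFM mice lay below every HFS mouse. The log2 difference was -0.10 (standard error 0.07, 95% interval -0.25 to 0.05), with an adjusted p of 0.828 with limma and an exact permutation p of 0.161. All 3 uptake carriers among the 10 genes thus had estimates below 0, of which Slc10a1 alone passed an unadjusted p of 0.05. Whether the 3 estimates differ from each other was not tested. Over all probe sets 51.4% lay above 0, and outside the 10 genes the carrier genes Slco2b1 and Slco1a4 were at 0.08 and -0.12.

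Abcb11 encodes BSEP, the pump that moves bile salts across the canalicular membrane, and had means of 9.05 ± 0.31 (n = 7) in HFM and 9.06 ± 0.31 (n = 7) in HFS livers. The lowest HFM mouse had 8.57, the median 9.20 and the highest 9.31, against 8.59, 9.18 and 9.48 for HFS mice. The log2 difference was -0.01 (standard error 0.14), and its 95% interval of -0.31 to 0.29 spans 0.804 to 1.22 times the control level. The adjusted p was 0.99 with limma and the exact permutation p was 0.926.

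Nr0b2 had equal means and unequal spreads. HFM mice ran from 6.51 over a median of 6.70 to 7.48 and HFS mice from 6.65 over 6.82 to 6.99. HFM6 and HFM7 were highest at 7.48 and 7.17, and 3 other HFM mice lay below every HFS mouse. The means were 6.83 ± 0.37 (n = 7) and 6.84 ± 0.13 (n = 7), with a log2 difference of 0.00 (standard error 0.13, 95% interval -0.27 to 0.26), an adjusted p of 0.997 with limma and an exact permutation p of 0.981. The 250 bases before its start are shown because LRH-1 also drives this gene, with the LRH-1 letters CAAGGCCA and the STAT letters TTCAATGAA in capitals (GRCm38.p6, chr4:133553126-133553375, plus strand, 5′ to 3′).
Nr0b2: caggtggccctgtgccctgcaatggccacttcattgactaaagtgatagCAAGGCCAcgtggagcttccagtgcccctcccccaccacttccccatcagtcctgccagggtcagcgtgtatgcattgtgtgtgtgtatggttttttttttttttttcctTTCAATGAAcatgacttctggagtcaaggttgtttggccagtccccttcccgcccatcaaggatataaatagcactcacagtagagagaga
The LRH-1 letters lie 201 to 194 and the STAT letters 91 to 83 bases before the start.

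**Figure D2:**
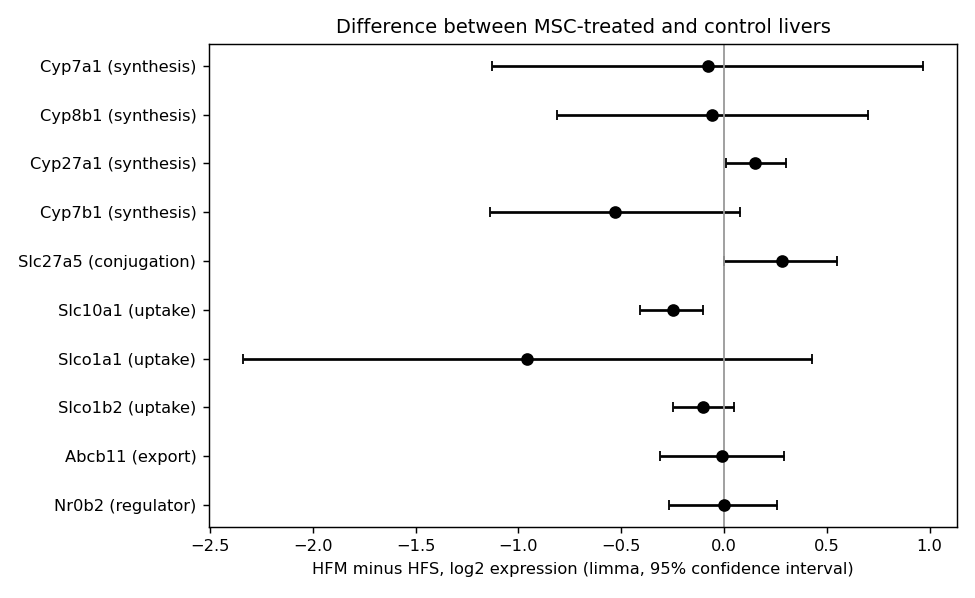
Log2 difference of each bile acid gene, HFM minus HFS, as a point with its 95% confidence interval from limma, with a line at 0. The interval of Slc10a1 runs from -0.41 to -0.10, while that of Slco1a1 runs from -2.34 to 0.43.

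The 10 genes did not vary between mice as 1 group, but some of them varied together. After the group means were subtracted, the 45 pairs of genes had correlations over 14 mice from -0.69 to 0.87 with a median of 0.08, and 24 were positive. As a description of genes grouped after the values were seen, the pairs among Cyp7a1, Cyp8b1, Cyp27a1 and Slc27a5 had r = 0.53 to 0.82. Their pairs with Cyp7b1 and Slco1a1 had r = -0.63 to -0.31, and Cyp7b1 with Slco1a1 had 0.87. HFS3 and HFS4, described next, were at the ends of the HFS range in these genes, and most of these pairs were not recomputed without them. The values of a pair come from the same arrays.

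Among HFS mice, HFS3 and HFS4 were the 2 lowest in 4 genes (Cyp7a1, Cyp8b1, Cyp27a1 and Slc27a5) and the 2 highest in 3 (Cyp7b1, Slco1a1 and Abcb11). For Cyp8b1 they had 6.40 and 5.82 against 7.61 to 8.65 in the other HFS mice. For Slco1a1 they had 8.48 and 9.08 against 4.02 to 7.75. In a comparison without both, chosen after these values were seen, the log2 difference of Cyp8b1 was -0.66 at an unadjusted p of 0.00253 with limma, and it passed the p and fold cut-offs. In the same comparison Slc10a1 was at -0.24, Cyp7a1 at -0.60, Cyp7b1 at -0.19 and Slco1a1 at -0.18, and Cyp27a1 and Slc27a5, at 0.08 and 0.10, no longer passed an unadjusted p of 0.05. The labels and the methods give no reason to set these mice apart, and they remain in all other values except where a mouse is named as left out.

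**Figure D3:**
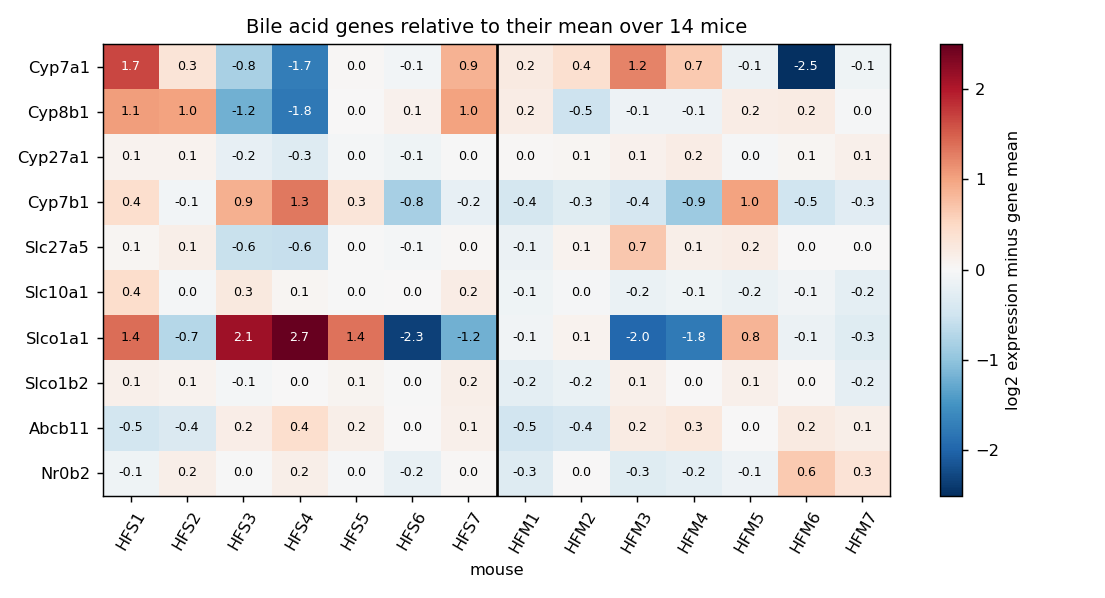
Log2 expression of each bile acid gene (rows) in each mouse (columns, HFS left and HFM right of the line) minus the mean of that gene over 14 mice, from blue (below the mean) to red (above). HFS3 and HFS4 are below the mean in Cyp7a1, Cyp8b1, Cyp27a1 and Slc27a5 and above it in Cyp7b1 and Slco1a1.

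HFS3 and HFS4 also had the lowest acute phase levels, the mean of 12 centred log2 values of acute phase genes, at -1.11 and -1.07. HFS mice ran from -1.11 to 0.81 and HFM mice from 0.01 to 0.77. All 12 acute phase genes lay above 0 in HFM minus HFS with a median of 0.53. Of the 12, 8 were higher at an unadjusted p under 0.05 with limma, beside 3.57% of all probe sets. The authors had reported Saa1, Saa3, Lcn2 and Orm1 as higher from these same arrays, so the count is not independent of that report. The Pearson correlation of this level with each of the 10 genes, over 14 mice with group means subtracted, ran from -0.50 (Cyp7b1) to 0.41 (Slc27a5), and none passed a permutation test adjusted over 18 relations. For Slc10a1 it was -0.27 (permutation p = 0.501, adjusted 0.729). For Cyp8b1 it was 0.28 over 14 mice (permutation p = 0.526, adjusted 0.729) and -0.86 over the 12 mice without HFS3 and HFS4 (permutation p = 0.00489, adjusted 0.0257), so its direction rests on those 2 mice.

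Slco1a1 and Cyp7b1 followed each other closely from mouse to mouse. With group means subtracted, Pearson's r over 14 mice was 0.87 (permutation p = 6e-05, adjusted 9e-04) and Spearman's rho was 0.90 (permutation p = 0.00033, adjusted 0.00297). Without HFS3 and HFS4, the mice farthest from the median of Slco1a1, r was 0.78 (permutation p = 0.00082, adjusted 0.0148), and it was 0.71 within HFM and 0.97 within HFS mice. Both genes are known for higher expression in male than in female mouse liver under growth hormone control, and both were set against a level made from 7 of 9 other male-predominant liver genes, among them Hsd3b5, Elovl3, Cyp4a12a and Cyp2d9. That level ran from -0.62 to 0.74 in HFM and from -0.93 to 0.98 in HFS mice. It is not scaled, so genes of larger spread weigh more. Hsd3b5, whose HFM mean of 3.59 lay under the lowest array median of 4.24, had an SD of 1.16 in HFM and 1.55 in HFS mice. Selenbp2 had 0.14 and 0.12. A correlation with the level therefore does not describe each of the 7 genes. The level had r = 0.87 with Cyp7b1 (permutation p = 1e-04, adjusted 9e-04) and 0.84 with Slco1a1 (permutation p = 0.00021, adjusted 0.00126), and rho was 0.78 (permutation p = 0.00111, adjusted 0.00666) and 0.83 (permutation p = 0.00015, adjusted 0.0027). Without HFS4 and HFS6 r was 0.76 and 0.70 (both adjusted p = 0.0257 by permutation). All mice were males, and between groups the 7 genes had a median difference of -0.14, from -1.18 for Hsd3b5 (standard error 0.59, unadjusted p = 0.0627 with limma) to 0.17 for Selenbp2, the only 1 of the 7 past an unadjusted p of 0.05 (0.0311).

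Cyp7a1 and Nr0b2, a target of SHP and the gene of SHP, ran in opposite directions over all mice, but this rested on few of them. Pearson's r with group means subtracted was -0.69 (permutation p = 0.0087, adjusted 0.0391) and rho was -0.40 (permutation p = 0.155, adjusted 0.662). Without HFM6, which had the lowest Cyp7a1 and the highest Nr0b2, and HFS4, r was -0.28 (permutation p = 0.319, adjusted 0.716). Within HFM mice r was -0.86 and within HFS mice -0.40. Cyp8b1 and Nr0b2 had r = -0.04. Cyp7a1 and Cyp8b1, which share these regulators, had r = 0.53 (permutation p = 0.0404, adjusted 0.146), with 0.93 within HFS and -0.50 within HFM mice, and 0.06 without HFS3 and HFS4. Slco1b2 and Slco1a1 had r = -0.22 and Abcb11 and Slc10a1 -0.33, neither past the adjusted threshold. Of the 18 relations, 4 passed an adjusted permutation p of 0.05.

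**Figure D4:**
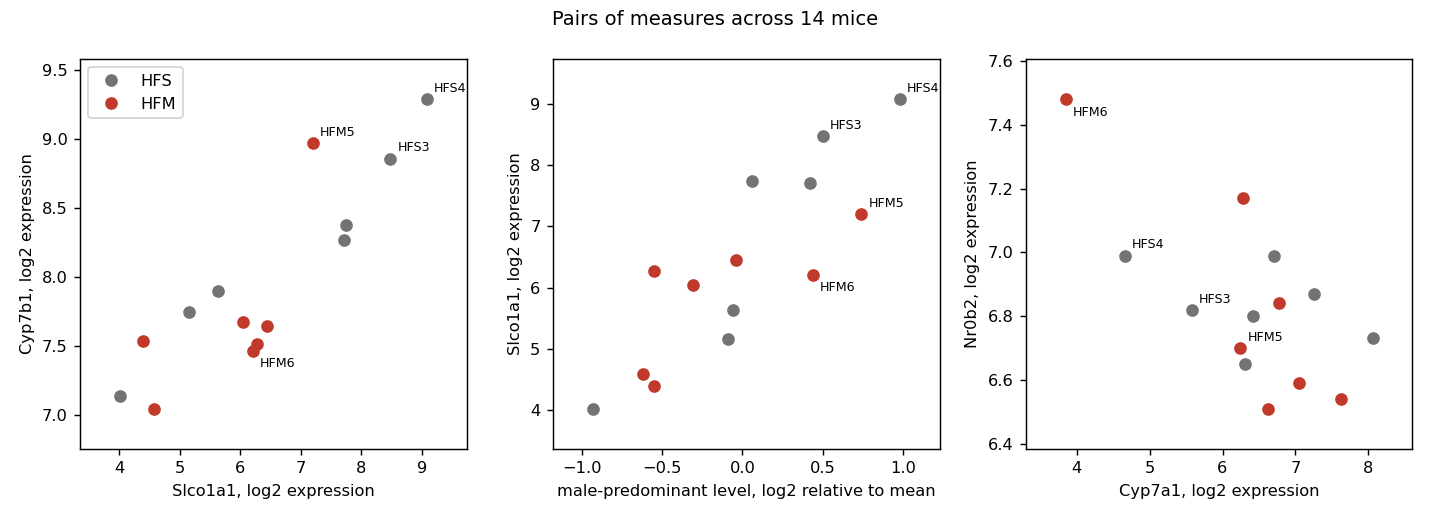
Each point is 1 mouse (HFS grey, HFM red), with log2 expression of Cyp7b1 against Slco1a1 (left), Slco1a1 against the mean centred log2 level of 7 male-predominant genes (centre) and Nr0b2 against Cyp7a1 (right). The first 2 pairs rise together in both groups (r = 0.87 and 0.84), while the third rests on HFM6 and HFS4, without which r is -0.28.

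Outside the chosen genes, 43 of 44 listed genes of bile acid synthesis, transport and control were measured, and 3 of 43 (6.98%) passed an unadjusted p of 0.05 with limma, beside 6.47% of all probe sets. Their differences ran from -0.44 to 0.17 with a median of -0.01, and 20 lay above and 23 below 0. None passed the p and fold cut-offs or an adjusted p of 0.05. Among 13 further enzymes of synthesis and side chain shortening none passed, with differences of -0.18 (Cyp39a1) to 0.08 (Amacr). Among 6 canalicular transporters, such as the phospholipid exporter gene Abcb4 at -0.09 and the conjugate exporter gene Abcc2 at 0.09, none passed either.

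Of 7 basolateral transport genes, Ephx1 was lower in HFM livers at an unadjusted p under 0.05. It encodes microsomal epoxide hydrolase and is listed here since the protein has been linked to sodium-dependent bile acid uptake. Its values were 9.58 to 10.17 (median 9.73) in HFM mice and 9.78 to 10.47 (median 10.16) in HFS mice, a log2 difference of -0.28 (standard error 0.12) with an adjusted p of 0.768 with limma and an exact permutation p of 0.0571. Slc51a, a subunit of the basolateral exporter OST, had 0.13 (standard error 0.07) and Slc51b, its partner, 0.06. Both had low signals, with means of 3.25 and 4.2 in HFM and 3.12 and 4.14 in HFS livers, under the lowest array median of 4.24. Of 16 regulators measured, Gpbar1, the membrane bile acid receptor, was lower by the same measure, at 5.44 ± 0.10 (n = 7) in HFM and 5.61 ± 0.14 (n = 7) in HFS livers, and 7 of 7 HFM mice were under the mean of the controls. Its log2 difference was -0.17 (standard error 0.07, adjusted p = 0.768 with limma, exact permutation p = 0.0274). Nr1h3, the oxysterol receptor LXR-alpha, was higher, at 7.63 ± 0.17 (n = 7) against 7.46 ± 0.13 (n = 7), and 7 of 7 HFM mice were over the mean of the controls. Its log2 difference was 0.17 (standard error 0.08, adjusted p = 0.772 with limma, exact permutation p = 0.0624). FXR itself, Nr1h4, was at 0.00 (standard error 0.14, 95% interval -0.30 to 0.30), and the FGF receptor pair that carries the intestinal signal to Cyp7a1 was at -0.02 for Fgfr4 and 0.03 for Klb. The largest difference among regulators, -0.44 for Onecut1, had a standard error of 0.25 and did not pass, though it did without HFM1, HFM5 or HFS1. When each mouse was left out in turn, Ephx1 passed an unadjusted p of 0.05 in 9 of 14 fits, Gpbar1 in 8 and Nr1h3 in 6, and none of the 3 did without HFM2 or without HFS4. Ephx1 did not pass with array weights or in an unmoderated test. Gpbar1 did not with median centring of the arrays or with the mouse number as a replicate block. Among the changes of processing, Nr1h3 passed only with median centring, averaged probe sets and 1 probe set per gene.

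**Figure D5:**
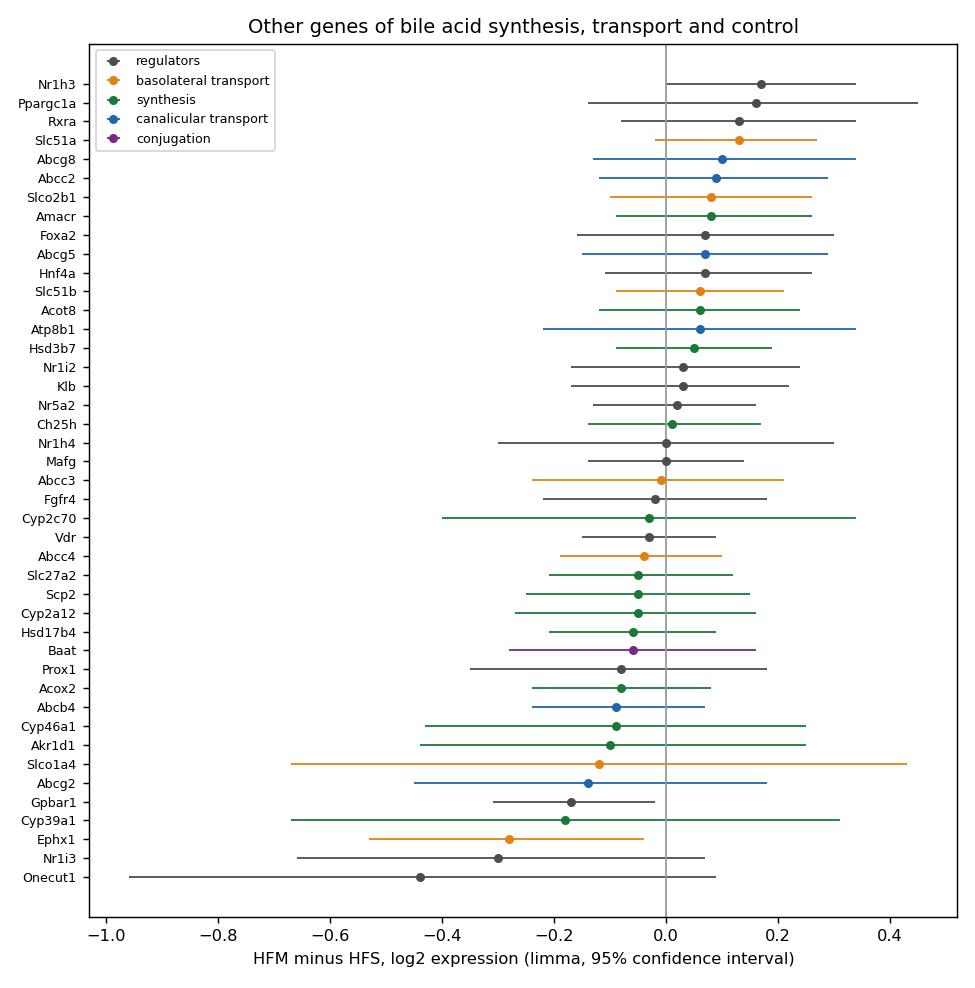
Log2 difference, HFM minus HFS, with its 95% confidence interval from limma for 43 other genes of the pathway, coloured by role. The intervals of Ephx1 and Gpbar1 lie below 0 and that of Nr1h3 begins just above 0, drawn at 0.00 after rounding. All other intervals cross 0.

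Markers of other cells were read beside these values. All 13 macrophage markers lay above 0 in HFM minus HFS, with a median of 0.29, mean levels of 4.91 to 7.97 per marker and 5 of 13 were higher at an unadjusted p under 0.05 with limma. Their mean centred level ran from -0.26 to 0.76 in HFM and from -0.51 to 0.52 in HFS mice, and their part in the lower Slc10a1, Ephx1 and Gpbar1 and the higher Nr1h3 was not tested. Past that threshold were also 1 of 7 markers of sinusoidal endothelium, 1 of 7 of stellate cells and 1 of 6 of neutrophils, all higher, 1 higher and 1 lower of 7 of lymphocytes, and none of 5 of cholangiocytes. The neutrophil gene was Cxcr2, with means of 2.89 in HFM and 2.66 in HFS mice. The lymphocyte genes were Cd3g (3.13 and 2.9) and Cd79a (3.18 and 3.42). These means lie under the lowest array median of 4.24, so the signals were low. The hepatocyte level ran from -0.16 to 0.09 in HFM and from -0.13 to 0.09 in HFS mice. Several of the 10 genes follow the time of day, Cyp7a1 above all, and of 14 circadian clock genes measured none passed an unadjusted p of 0.05 (median 0.02). Within groups some clock genes spread widely. Dbp ran from 6.13 to 9.14 in HFM and from 6.53 to 8.94 in HFS mice. Clock ran from 7.00 to 7.78 and from 6.93 to 7.66. The part of this spread in that of the 10 genes was not tested. The hour of collection is not given in the sources used here.

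For each gene the other genes nearest to it over the 14 arrays were listed, by Pearson's r with group means subtracted among 19928 genes, as a description. Nearest to Cyp7b1 was Hsd3b5 (r = 0.938), a male-predominant steroid dehydrogenase gene, which ran from 2.85 to 5.93 in HFM and from 3.21 to 7.36 in HFS mice. Hsd3b5 lay under the lowest array median of 4.24 in HFM1, HFM3, HFM4, HFM6, HFM7, HFS2, HFS6 and HFS7, so this r leans on the remaining mice. Nearest to Slco1a1 were C8b (r = 0.910) and C6 (r = 0.899), both of the terminal complement pathway. C6 is also 1 of the 7 genes of the male-predominant level above. Cyp8b1 had Kcng4 (0.926) and Bhmt (0.922), the betaine-homocysteine methyltransferase gene, which was at 9.78 and 9.08 in HFS3 and HFS4 and at 11.04 or more in all other mice. Slc27a5 had Dpyd (0.938) and Sardh (0.926), of pyrimidine and sarcosine breakdown. Slco1b2 had Etfdh (0.927). The nearest genes of the other 5 were Gpr173 for Nr0b2 (0.874), Trim24 for Cyp7a1 (0.867), Canx for Abcb11 (0.861), 4933427I04Rik for Cyp27a1 (0.888) and Polr3c for Slc10a1 (0.846). Kcng4, Gpr173 and 4933427I04Rik had low signals, with means of 3.42, 3.32 and 3.46 under the lowest array median of 4.24.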

How the data were processed

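RNA from 14 livers (7 HFM, 7 HFS) was hybridised to Affymetrix mouse gene arrays, 1 mouse per array. Each deposited value is the log2 expression of a probe set, summarised and normalized by the authors in Expression Console. The labels name RMA and the methods PLIER, and neither gives versions or a genome build. All 14 value columns were used. Of 35556 probe sets, 23410 had a gene symbol and were tested, 21789 of them with 1 symbol, with no filter on signal. Groups were taken from the sample labels.

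HFM minus HFS was fitted with limma 3.58.1 (lmFit and eBayes) in R 4.3.3 with no covariate, with Benjamini-Hochberg adjustment over 23410 probe sets. Single genes were also compared by a two-sided exact permutation test over 3432 assignments. Correlations over mice used values minus the group means, 100000 permutations within groups and adjustment over 18 relations. The level of a list in a mouse is the mean of its genes' log2 values, each minus its mean over 14 mice. The fits were tested on simulated data.

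Besides the 10 genes, the text names other genes of the pathway list past an unadjusted p of 0.05 or with the 4 smallest p values, up to 3 nearest genes of each, leading genes of the marker and level lists, and genes on which a count or result turns. Range ends and receptors named beside them were chosen after their values were seen. The genes, lists and tests were chosen with earlier results of these data known. The alternatives were a replicate block, quantile normalization, median centring, the brighter probe sets only, array weights, a trended and robust prior, an unmoderated test, averaged probe sets for each gene, 1 probe set per gene and each mouse left out. Leaving out HFS3 and HFS4 together was added after the values were seen. Promoters are RefSeq's (GRCm38.p6), found for 7 of the 10 genes (not Cyp7a1, Cyp7b1 and Slc27a5), and motifs were searched on both strands of 250 bases before the start.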

Additional observations from a re-analysis of the deposited data

Results flagged for a closer look

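Over 14 genes, the 10 bile acid genes with Ephx1, Gpbar1, Nr1h3 and Slc51a, in each group (28 tests of the highest or lowest of 7 mice against the others), 3 values stood apart, where chance marks about 1 group in 20. Each is the gap to the nearest mouse divided by the range of the group, set against the critical value of Dixon's test for 7 values at the 95% level. All 3 were in HFM mice and in different animals. HFM6 was low in Cyp7a1 at 3.85 (0.633), and the same mouse had the highest Nr0b2. HFM5 was high in Cyp7b1 at 8.97 (0.672) and had the highest HFM value of Slco1a1, 7.20. HFM3 was high in Slc27a5 at 9.78 (0.604).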

How the results depend on the processing

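Of 240 differences of single genes over all alternatives, 187 kept their direction and side of an unadjusted p of 0.05, 23 lost and 5 gained that threshold, and 25 changed direction. Slc10a1 lay below 0 and past that threshold in every alternative run. At an unadjusted p under 0.05, 3 of the 10 genes passed, but 1 (Slc10a1) with quantile normalization and 1 with the mouse number as a replicate block. With the brighter probe sets only and in the unmoderated test 2 passed (Cyp27a1 and Slc10a1). The trended and robust prior left 2 (Slc27a5 and Slc10a1). Array weights gave 3, with Cyp7b1 in place of Slc27a5. Without 1 mouse the count was 1 to 3, with 1 (Slc10a1) without HFM3, HFM4, HFS3 or HFS4. At the p and fold cut-offs of the methods, before their Bonferroni correction, where 0 passed, 1 did with quantile normalization (Slc10a1) and 1 without HFS3 and HFS4 together (Cyp8b1), and 0 to 1 without 1 mouse (Slc10a1, or Cyp7b1 without HFM5). At an adjusted p of 0.05 the count was 0 to 0 without 1 mouse and 0 in the other alternatives. Of the other pathway genes 3 passed an unadjusted p of 0.05, Ephx1, Gpbar1 and Nr1h3, with 1 under array weights and 1 in the unmoderated test (Gpbar1), 3 with median centring (Ephx1, Nr1h3 and Slc51a), 0 without HFS3 and HFS4 together and 0 to 4 without 1 mouse (0 without HFM2 or HFS4, 1 without HFS2 or HFS3). Deviations of same-numbered mice correlated at -0.20 to 0.14. These values give 1 correlation per mouse number, so they cannot decide whether same-numbered mice were alike in single genes. Under the block the standard error of Abcb11 fell from 0.14 to 0.07. Those of Cyp27a1 and Slc27a5 rose from 0.07 to 0.08 and from 0.13 to 0.15, and neither gene passed an unadjusted p of 0.05. The 3 other pathway genes past 0.05 under the block were Ephx1, Onecut1 and Nr1i3. Pairing by mouse number was not tested gene by gene. Differences near 0 changed direction: Abcb11 was 0.01 with median centring and 0.10 without HFS3 and HFS4, and Nr0b2 was 0.02 in both of these and 0.00 with array weights. Without 1 mouse the range was -0.09 to 0.07 for Abcb11, -0.11 to 0.05 for Nr0b2, -0.37 to 0.34 for Cyp7a1 and -0.36 to 0.11 for Cyp8b1. Without the 2 mice farthest from the median, r changed sign for Nr0b2 with Cyp8b1 (0.21), for Slc10a1 with Abcb11 (0.08) and for the acute phase level with Cyp7a1 (-0.33), Cyp8b1 (-0.86), Cyp27a1 (-0.31), Slc27a5 (-0.14), Slco1a1 (0.14) and Abcb11 (0.29). It also did with quantile normalization for Nr0b2 with Cyp8b1 (0.02) and the acute phase level (-0.01), and with median centring for Slco1b2 with the acute phase level (0.03). Median centring left r of Cyp7a1 and Nr0b2 at -0.69 with an adjusted permutation p of 0.0521. The cause of these changes was not tested.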
